A study of Mus musculus with 8 samples.

Results

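The aminoacyl-tRNA synthetases examined here were 36 genes, of which 16 encode mitochondrial enzymes and carry names ending in 2 and 20 encode cytosolic enzymes. They were chosen by name and set beside all 26180 mouse genes with a curated RefSeq transcript. To locate MOF (Kat8, the acetyltransferase of lysine 16 on histone H4) at these genes, its peaks from ChIPseq were compared with Cut&Run peaks of H3K4me3, H3K27ac and Rfx2, a transcription factor that binds the X-box of ciliary gene promoters. The tissue was total epidermis, unsorted, of wild-type mice at P0.5 in every library. Each antibody contributed 1 peak list, so the values carry no replicate error and no test between replicates was possible.

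Aminoacyl-tRNA synthetases join each amino acid to its tRNA, and translation stops without them. The cytosolic enzymes serve the ribosomes of the cytoplasm. The mitochondrial enzymes are encoded in the nucleus, imported, and serve only the ribosomes that make the subunits of the electron transport chain (ETC) encoded in mitochondrial DNA. Loss of charged tRNA in the cytosol activates the kinase Gcn2 (Eif2ak4) and the factor Atf4, which binds composite C/EBP-ATF response elements (CARE).

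A MOF peak lay at the promoters of 9 of the 16 mitochondrial and 10 of the 20 cytosolic genes, whereas H3K4me3 and H3K27ac lay at all 36. Of all genes, 23.7% had MOF at the promoter, 54.0% H3K4me3 and 44.1% H3K27ac, and of the genes with both marks 48.8% had MOF, near the shares of the synthetases. Rfx2, at 1.21% of all genes, was found at Fars2 and Wars2, both mitochondrial, though its Wars2 peak began 23 bp inside the gene. The CARE sequence, in 4.23% of all promoters, was found in 5 cytosolic promoters and in no mitochondrial promoter among those with sequence. A promoter was counted as 1 kb before to 100 bp after a transcription start site (TSS), and 1 bp of overlap with a peak sufficed.

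The promoter sequences shown here came from RefSeq on GRCm38.p6, the assembly behind mm10. In the table of promoter sequences, 27 members had an entry (14 mitochondrial and 13 cytosolic), and Hars2, Pars2, Cars, Hars, Lars, Nars, Rars, Vars and Wars had none. Shown first, because MOF, Rfx2 and both marks met there, are the bases between the divergent starts of Fars2 and Lyrm4 (chr13:36117358-36117642, plus strand), with the X-box and each Sp hexamer (GGGCGG or its complement) in capitals. Shown next are the bases between the divergent starts of Sars2 and Mrps12 (chr7:28741822-28741967, plus strand), the mitochondrial gene with the highest MOF score, with CCAAT boxes (here ATTGG) and the Sp hexamer in capitals.
Fars2-Lyrm4: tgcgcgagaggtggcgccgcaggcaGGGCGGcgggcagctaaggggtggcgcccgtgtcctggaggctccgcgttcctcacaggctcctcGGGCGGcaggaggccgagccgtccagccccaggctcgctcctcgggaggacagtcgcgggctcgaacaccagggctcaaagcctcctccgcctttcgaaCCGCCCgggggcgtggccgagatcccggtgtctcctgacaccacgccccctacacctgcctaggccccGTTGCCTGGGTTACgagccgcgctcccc
Sars2-Mrps12: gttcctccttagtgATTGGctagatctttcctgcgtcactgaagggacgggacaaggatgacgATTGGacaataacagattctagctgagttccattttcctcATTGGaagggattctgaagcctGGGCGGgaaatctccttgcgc

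The CARE, searched as TGATGNAA on both strands, is shown with its surroundings in the direction of each gene because it was found in cytosolic promoters and in no mitochondrial one. For each gene the match nearest the start is shown in capitals, and of the matches shown all but that of Yars are on the opposite strand. The stretches are at chr8:111033840-111033869, plus strand for Aars, at chr6:55037960-55037989, plus strand for Gars, at chr13:49682126-49682155, plus strand for Iars, at chr15:11399655-11399684, minus strand for Tars and at chr4:129189895-129189924, plus strand for Yars.
Aars: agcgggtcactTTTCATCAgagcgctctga
Gars: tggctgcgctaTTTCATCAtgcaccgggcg
Iars: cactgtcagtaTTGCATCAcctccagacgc
Tars: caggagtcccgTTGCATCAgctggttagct
Yars: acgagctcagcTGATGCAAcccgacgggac

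MOF was at 56.25% of the mitochondrial promoters (9 of 16, 95% exact confidence interval 29.9 to 80.2%) and at 50% of the cytosolic ones (10 of 20, 27.2 to 72.8%). The difference of 6.25 percentage points had an interval of -24.3 to 35.1 points (Newcombe), so the classes could not be told apart in MOF at this number of genes. These intervals cover counting error over genes only. Of all annotated genes, 23.7% had MOF at the promoter. That share was 42.0% among genes with H3K4me3 and 48.8% among genes with H3K4me3 and H3K27ac, and all the synthetase genes were of the latter kind. Together 19 of 36 synthetase genes had MOF (52.8%, 35.5 to 69.6%), an interval that lies above the 23.7% of all genes and holds the 48.8% of genes with the same marks.

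**Figure D1:**
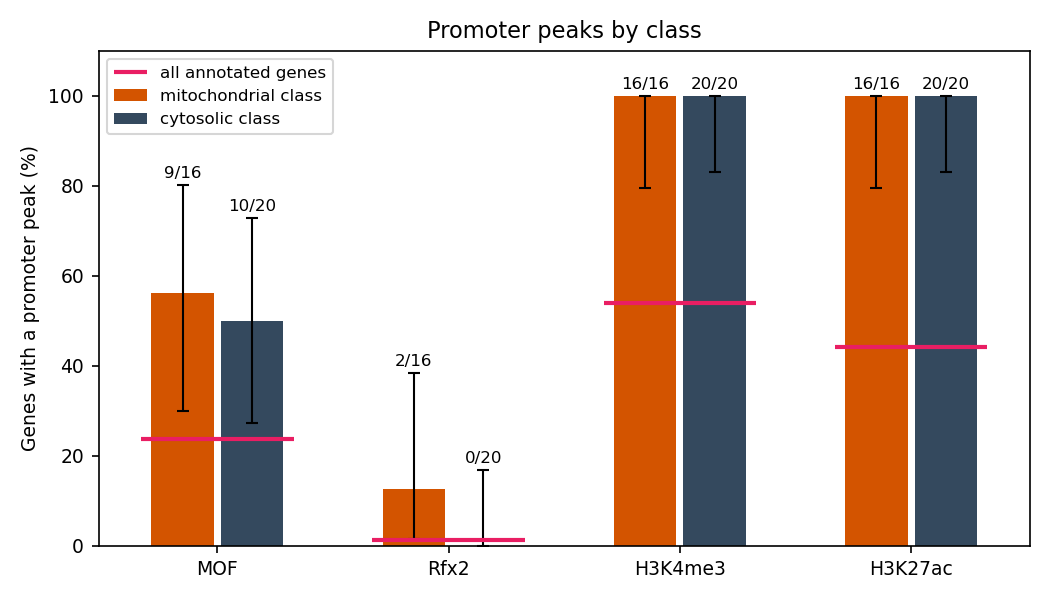
Share of genes with a promoter peak (%) for each peak list and class, with exact 95% confidence intervals as bars, counts above them, and the share of all annotated genes as a line. The mitochondrial and cytosolic bars are close for MOF (56.25% and 50%) and equal for the histone marks, and Rfx2 appears in the mitochondrial class with 2 of 16 genes.

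Among the mitochondrial genes, the MOF score was highest at Sars2 (1191), which charges serine, followed by Fars2 (996, phenylalanine), Aars2 (844, alanine), Nars2 (800, asparagine) and Lars2 (736, leucine). Lower scores were listed at Rars2 (494, arginine), Yars2 (494, tyrosine), Mars2 (431, methionine) and Wars2 (423, tryptophan). No promoter MOF peak was listed at Cars2, Ears2, Hars2, Iars2, Pars2, Tars2 and Vars2. The score has no stated scale and serves only to rank peaks within the MOF list.

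Among the cytosolic genes, Rars, the arginine enzyme, had the highest score (1975), rank 434 of 17546 MOF peaks and above that of 98.9% of genes with a promoter MOF peak. Wars (991), Yars (963), Tars (916), Farsb (835), Eprs (829), Kars (720) and Aars (658) came next, and Farsa (405) and Qars (357) were lowest. Farsa and Farsb encode the α and β subunits of 1 phenylalanine enzyme, and both had MOF. Eprs encodes a single chain that charges glutamate and proline. The remaining 10, Cars, Dars, Gars, Hars, Iars, Lars, Mars1, Nars, Sars and Vars, had no MOF peak at the promoter.

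**Figure D2:**
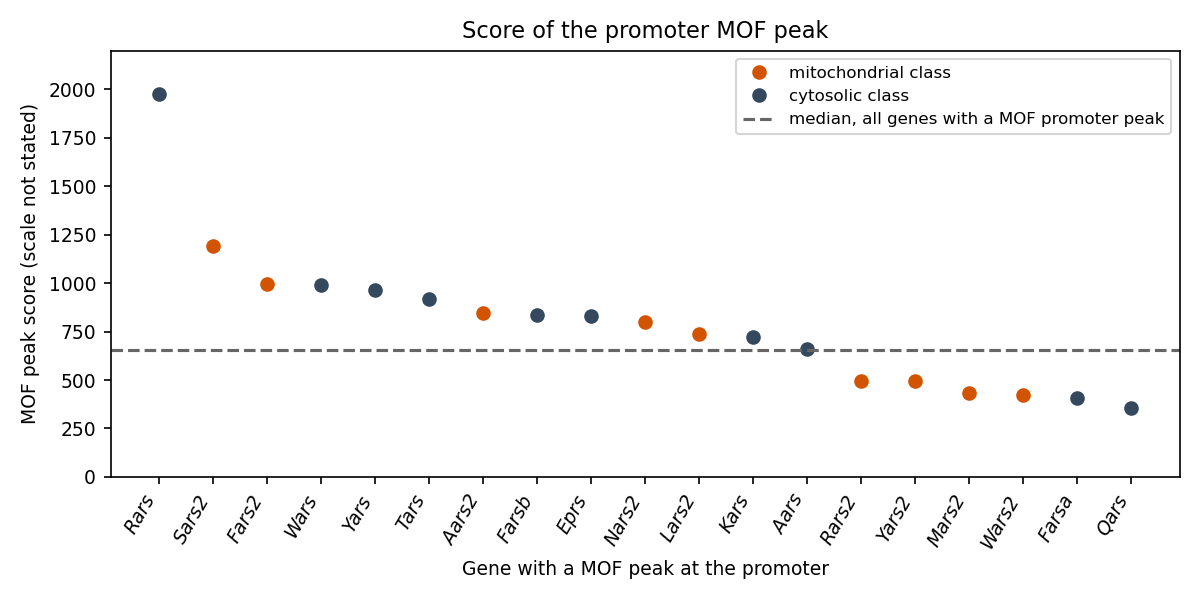
Score of the promoter MOF peak (vertical axis, scale not stated) at each of the 19 synthetase genes that had one, in order of score and coloured by class, with the median of all genes with such a peak as a dashed line (656). Rars stands alone at 1975, the classes are interleaved below it, and 6 genes lie under the line.

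The median MOF score was 736 at the 9 mitochondrial genes (95% interval of the median 431 to 996) and 832 at the 10 cytosolic genes (405 to 991), against 656 over the 6194 genes with a promoter MOF peak. Scores above that median were found at 5 of 9 and 8 of 10 genes. The median widths of the peaks were 800 bp (367 to 1337) and 764.5 bp (638 to 1015). Over all such genes the median was 1008 bp, which lay inside both intervals, and 6 of the 19 exceeded it. Sars2 had the widest (1552 bp) and Mars2 the narrowest (364 bp). All 19 MOF peaks covered the TSS itself, as did a MOF peak at 5305 of all 6194 genes with one at the promoter.

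The members without MOF were not near misses with 1 exception. Their closest MOF peak lay at a median of 27123 bp from the TSS, from 161 bp at Iars to 59839 bp at Ears2. At Iars, which charges isoleucine, a MOF peak of score 494 began 161 bp inside the gene, just beyond the 100 bp limit, and both marks covered it. Of the members called, the MOF peaks of Farsa and Wars2 lay nearest to that limit, since each reached only 16 bp upstream of the start and ran 621 and 783 bp into the gene.

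The classes were then matched by amino acid, 16 of which have a mitochondrial and a cytosolic enzyme in the set. Both genes carried MOF for 5 amino acids (alanine, arginine, phenylalanine, tryptophan and tyrosine). The mitochondrial gene alone carried it for 4 (asparagine, leucine, methionine and serine), and the cytosolic gene alone for 3 (glutamate and proline, both through Eprs, and threonine). Neither did for 4 (cysteine, histidine, isoleucine and valine). Beside these counts, MOF was at 23.7% of all genes and at 48.8% of genes with both marks. Whether the enzymes of an amino acid match more often than other genes was not tested.

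Grouping by structure gave MOF shares close to each other and to the 48.8% of all genes with both marks (23.7% of all genes). Synthetases fall into families of unrelated catalytic fold, class I and class II, and MOF was at 9 of 18 class I genes (50%, 26.0 to 74.0%) and 9 of 17 class II genes (52.9%, 27.8 to 77.0%). Eprs, with a domain of each fold, was left out of that count. In animals some cytosolic synthetases assemble into a multi-synthetase complex, and MOF was at 4 of its 8 genes (Eprs, Kars, Qars and Rars, but not Dars, Iars, Lars or Mars1) and at 6 of the 12 cytosolic genes outside it. Gars and Kars also supply the mitochondrial enzyme from the same gene, and MOF was at Kars but not at Gars.

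H3K4me3 was present at 16 of 16 mitochondrial and 20 of 20 cytosolic promoters (exact intervals from 79.4% and from 83.2%), compared with 54.0% of all genes. H3K27ac was likewise present at 36 of 36, compared with 44.1% of all genes and 79.8% of those with H3K4me3. The median H3K4me3 fold enrichment was 9.52 in the mitochondrial class (6.91 to 13.3) and 9.95 in the cytosolic class (8.06 to 10.7), and 8.04 over all genes with the mark. For H3K27ac the medians were 8.40 (6.68 to 10.2) and 8.75 (6.83 to 10.2), against 6.72. Members above the median of all genes numbered 24 of 36 for H3K4me3 and 28 of 36 for H3K27ac.

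Mitochondrial genes held the highest H3K4me3 value and both the highest and the lowest H3K27ac value among the members. Aars2, which charges alanine, had the highest H3K4me3 enrichment at 17.8 (rank 110 of 27039 peaks), together with 11.5 for H3K27ac. Tars2 (13.9), Lars2 (13.7), Pars2 (13.3) and Wars2 (12.1) followed in H3K4me3, of which Tars2 and Pars2 lacked MOF. Iars2 (5.47), Mars2 (6.0), Cars2 (6.72) and Ears2 (6.91) were lowest in the class, and Mars2 also had the lowest H3K27ac value (4.88). The highest H3K27ac was at Nars2 (11.6).

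The cytosolic genes spanned a smaller range of H3K4me3, from 5.16 at Vars and 5.94 at Yars to 12 at Rars and Wars. Their H3K27ac ran from 5.80 at Cars to 11.5 at Aars, with Dars (11.0), Qars (10.9), Lars (10.8) and Gars (10.6) near the top. Dars, Lars and Gars were without MOF. Yars, with a MOF score of 963, had low H3K4me3 (5.94, percentile 22.3 of genes with the mark). Its H3K27ac was nearer the middle (6.45, percentile 45.1). At Yars the H3K27ac peak began just inside the gene, and it was the only H3K27ac peak among the 36 that did not cover the TSS.

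The marks did not separate members with MOF from members without it. H3K4me3 had a median of 9.94 (7.52 to 12) at the 19 genes with MOF and 9.73 (7.30 to 10.2) at the 17 without. H3K27ac had medians of 8.46 (6.76 to 10.4) and 8.38 (6.83 to 10.2). Over all genes with both marks, H3K27ac was 7.20 with MOF (5510 genes) and 6.35 without (5772 genes), and H3K4me3 was 8.06 and 8.30.

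**Figure D3:**
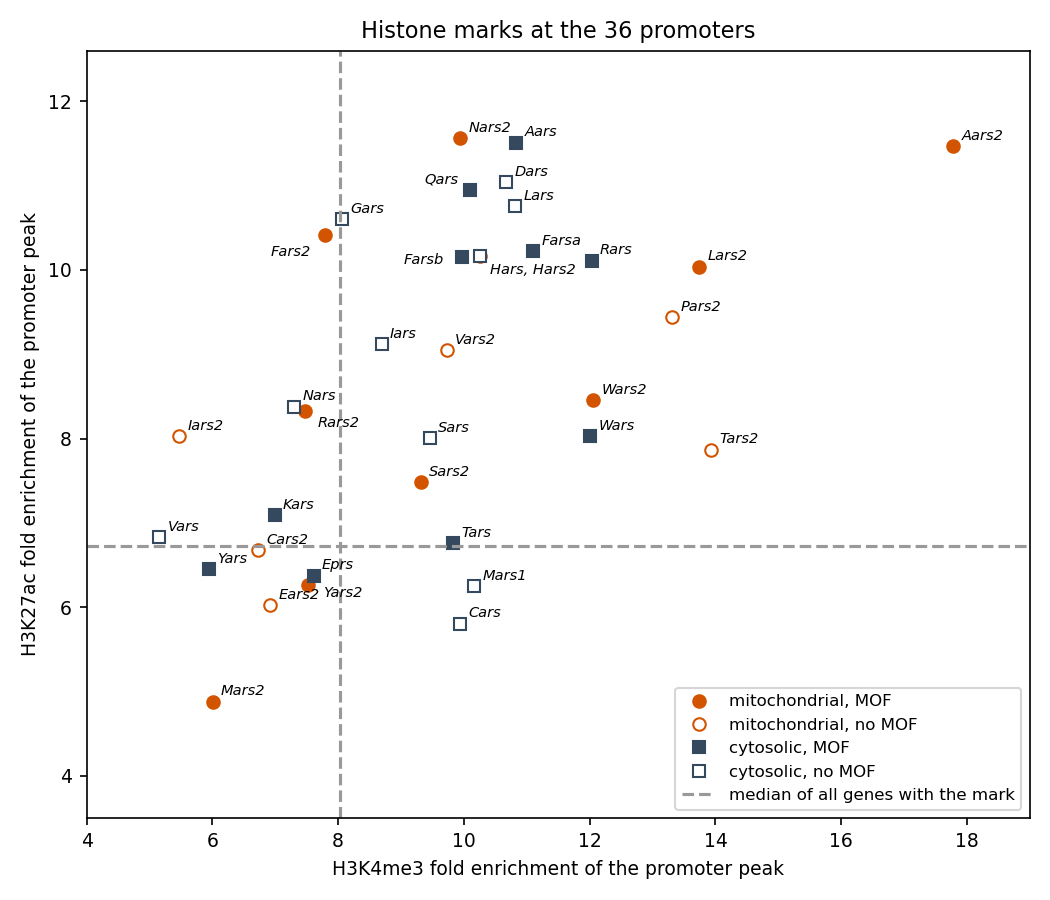
H3K4me3 (horizontal) and H3K27ac (vertical) fold enrichment of the promoter peak for each of the 36 synthetase genes, with shape and colour for class, filled symbols for genes with MOF, and dashed lines at the medians of all genes with the mark (8.04 and 6.72). Filled and open symbols are mixed in both classes, Aars2 stands apart at an H3K4me3 value of 17.8, and Hars and Hars2 share a point because they share their peaks.

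Around the start, the H3K4me3 and H3K27ac peaks each reached further downstream than upstream at 29 of 36 genes, and the MOF peaks at 12 of 19. Reach and summit were not counted over all genes, so these counts describe the members and show no trait particular to them. Hars and Hars2 share their peaks, which are read from both sides. H3K4me3 reached a median of 472.5 bp upstream and 918.5 bp downstream, and its summit lay downstream of the TSS at 29 of 36 genes, at a median of 157.5 bp. H3K27ac summits lay downstream at 30 of 36, at a median of 133.5 bp. MOF reached 315 bp upstream and 477 bp downstream. The widest H3K4me3 peaks were at Yars (2293 bp), Mars2 (2166 bp) and Ears2 (2144 bp).

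**Figure D4:**
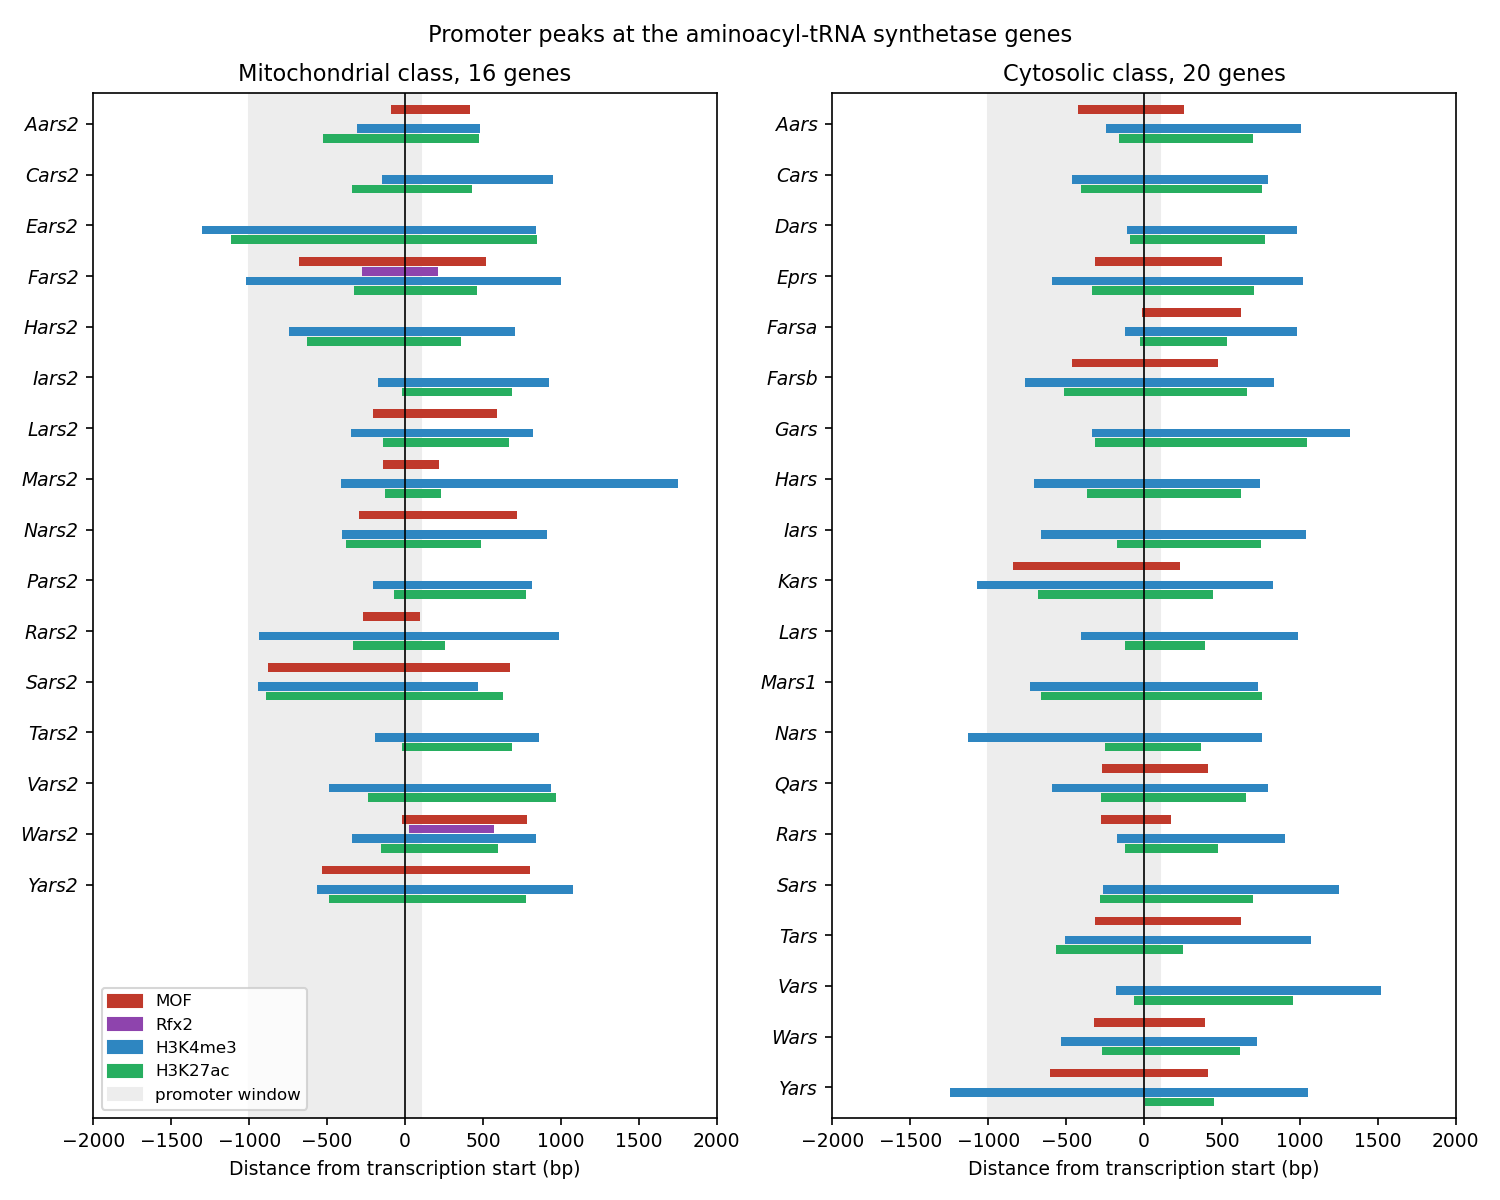
Extent of the promoter peaks of MOF, Rfx2, H3K4me3 and H3K27ac (coloured bars) around the first TSS of each synthetase gene, in bp along the direction of transcription, with the promoter window shaded. Every row holds a blue H3K4me3 bar and a green H3K27ac bar, which in 29 of the 36 rows for each mark reach further downstream than upstream, 19 rows hold a red MOF bar over the start, and Fars2 and Wars2 alone hold a purple Rfx2 bar.

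Rfx2 peaks were rare, with 337 in the list and 1.21% of all genes (2.24% of genes with H3K4me3) having one at the promoter. In the mitochondrial class 2 of 16 genes had one (12.5%, 1.55 to 38.3%). In the cytosolic class 0 of 20 had one, which allows a share of up to 15% (3 counts of 20, exact limit 16.8%). The difference of 12.5 points had an interval of -5.96 to 36 points, so it was not detectable at this number of genes. Fars2 had a fold enrichment of 9.51 and Wars2 one of 10.4, both above the median of 7.33 over the 317 genes with Rfx2. Their peaks of 490 and 552 bp were wider than 93.1% and 97.2% of such peaks. Both genes also had MOF, as did 65.0% of the 317 genes with Rfx2. The Wars2 peak of Rfx2 began 23 bp inside the gene and did not cover the TSS. With peaks required to cover a start, 1 of 16 mitochondrial genes had Rfx2 (6.25%), beside 0.45% of all genes.

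Both Rfx2 peaks contained an X-box, a pair of inverted half-sites that this factor is known to bind. The share of all Rfx2 peaks that contain an X-box was not counted, so this is a description of the 2 peaks only. At Fars2 it lay 22 bp upstream of the TSS and 104 bp from the Rfx2 summit (chr13:36117607-36117636, plus strand). At Wars2 it lay 342 bp downstream of the TSS in an intron, 215 bp from the summit (chr3:99141418-99141446, plus strand). The X-box is in capitals. Over the 300 bases around the start that the table holds, an X-box was in 1 of 14 mitochondrial promoters (Fars2), in 0 of 13 cytosolic ones, in 1.86% of all promoters and in 1.95% of promoters with both marks. Those 300 bases are fewer than either Rfx2 peak spans and do not reach the X-box of Wars2.
Fars2: taggccccGTTGCCTGGGTTACgagccgcg
Wars2: tggccagtGTTGCCTGGCAACgcaggaag

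Many housekeeping genes share a promoter with a neighbour that is transcribed in the other direction, and 10 synthetase genes did so within 1 kb (27.8%, 14.2 to 45.2%). That compares with 14.9% of all genes and 24.3% of genes with H3K4me3. There were 5 in each class, 5 of 16 mitochondrial (31.25%, 11.0 to 58.7%) and 5 of 20 cytosolic (25%, 8.66 to 49.1%). All 10 lay divergent to their partners, with starts 4 to 324 bp apart, so the promoter windows overlapped and a peak seen at one gene was seen at the other.

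Hars2 and Hars, the mitochondrial and cytosolic histidine enzymes, were partners of each other with starts 4 bp apart, and shared H3K4me3 (10.2) and H3K27ac (10.2) peaks without MOF. Sars2 lay 147 bp from Mrps12, a protein of the small mitochondrial ribosomal subunit, and MOF spanned both starts. Fars2 lay 286 bp from Lyrm4, which acts in iron-sulfur cluster assembly, and MOF and Rfx2 were at both promoters.

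MOF was also shared by Rars2 with Orc3, of the origin recognition complex (15 bp), by Kars with the telomere protein Terf2ip (5 bp), by Wars with Wdr25 (98 bp) and by Yars with S100pbp (324 bp). It was absent from Ears2 with Ubfd1 (112 bp) and from Vars with D17H6S56E-5 (161 bp). MOF was thus at 6 of the 10 members with such a partner (60%, 26.2 to 87.8%) and at 13 of the 26 without (50%, 29.9 to 70.1%). Among all genes with both marks the shares were 60.7% and 44.4%. The H3K4me3 peaks of the paired members had a median fold enrichment of 7.64 and a median width of 1798.5 bp, against 9.95 and 1351 bp at the others. The intervals overlapped for the heights (5.94 to 10.2 and 8.69 to 10.8) and for the widths (1413 to 2144 and 1104 to 1577 bp).

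Motifs were searched on both strands from 250 bases before to 50 after the start. The CARE was in 5 of 13 cytosolic promoters (38.5%, exact interval 13.9 to 68.4%). Among the mitochondrial promoters it was in 0 of 14, which allows up to 21.4% (3 counts of 14, exact limit 23.2%). It was in 4.23% of all 19528 promoters and in 2.40% of the 9075 with both marks. The difference of -38.5 points had an interval of -64.5 to -8.56 points, the only interval among the 9 motifs that did not include 0. It treats genes as independent draws and is not corrected for the number of motifs. The carriers were Aars, Gars, Iars, Tars and Yars, the enzymes of alanine, glycine, isoleucine, threonine and tyrosine. Of these 5 genes, Aars, Tars and Yars had MOF.

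**Figure D5:**
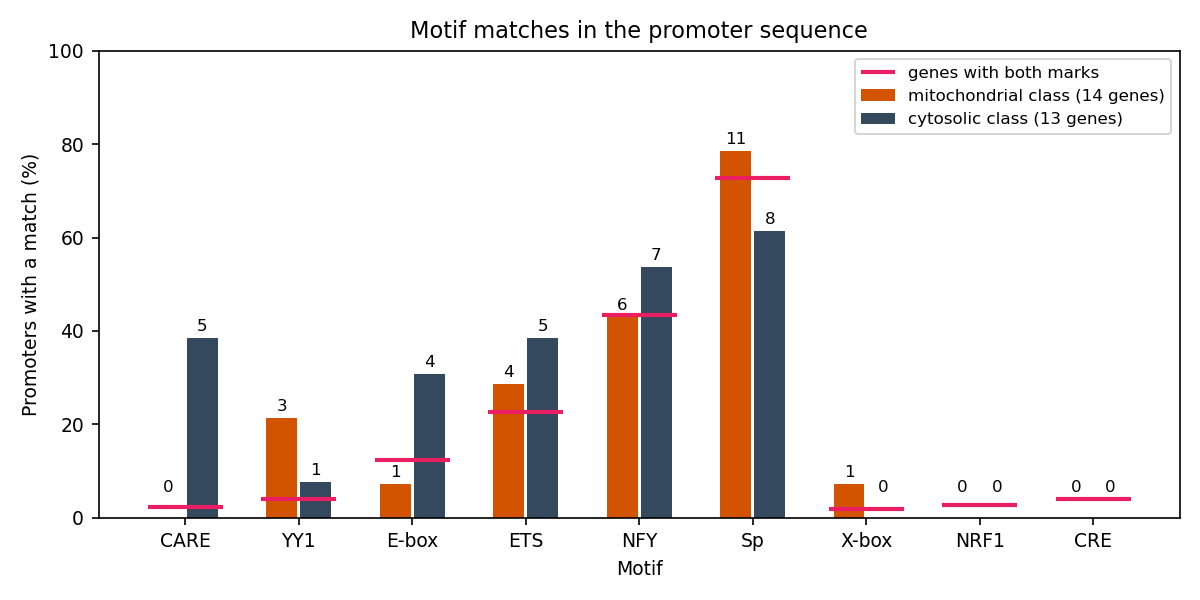
Share of promoters with a match (%) for each of 9 motifs in the 14 mitochondrial and 13 cytosolic genes with sequence, with the number of genes above each bar and the share of all genes with both marks as a line. The CARE bar stands at 38.5% in the cytosolic class and 0 in the mitochondrial class, and the other motifs differ less between the classes.

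The YY1 sequence AAGATGGCG was in 3 of 14 mitochondrial promoters (21.4%, 4.66 to 50.8%) and in 1 of 13 cytosolic promoters (7.69%, 0.195 to 36%), against 2.05% of all promoters and 3.97% of those with both marks. The interval of the difference, -15.4 to 40.7 points, included 0. At Aars2, Wars2 and Yars2 the ATG inside the match was the annotated start codon, 22, 9 and 19 bp from the first TSS, and at Farsa the match lay 94 bp upstream. All 4 genes had MOF, as did 59.9% of all 401 genes with a YY1 match and 66.1% of the 360 that also had both marks. The stretches are shown in the direction of the gene with the match in capitals (chr17:45506841-45506869, plus strand for Aars2, chr3:99141086-99141114, plus strand for Wars2, chr16:16302971-16302999, plus strand for Yars2 and chr8:84856882-84856910, plus strand for Farsa).
Aars2: gcccggagctAAGATGGCGgtggcgttgg
Wars2: cgcccttctcAAGATGGCGctgttctctg
Yars2: cgtgtcccgcAAGATGGCGgcgcccatgc
Farsa: tgccacacttAAGATGGCGacgaccagct

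The other motifs were common to both classes or absent. The Sp hexamer GGGCGG was in 11 of 14 mitochondrial and 8 of 13 cytosolic promoters (47.6% of all promoters and 72.7% of those with both marks), and CCAAT, the box of NFY, in 6 and 7 (42.1% and 43.4%). The ETS sequence CCGGAAG was in 4 and 5 (12.4% and 22.6%), and the E-box CACGTG in 1, Ears2, and 4, Aars, Farsb, Iars and Tars (8.95% and 12.4%). The NRF1 palindrome (1.38% and 2.68%) and the cyclic AMP element TGACGTCA (2.5% and 4.08%) were in none of the 27. Of 80 distinct matches in these promoters, 1 pair overlapped, both Sp hexamers of Yars. A match describes the letters of the window and does not show that a factor binds there.

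Inside the genes, peaks away from the promoter ranked among the first 100 of a list at Lars2, the mitochondrial leucine enzyme, and at Aars, where an H3K27ac peak of 13.6 (rank 86) overlapped the gene's edge with its centre outside the gene. Lars2 had the higher ranks. A MOF peak of score 56766, rank 4 in the MOF list, lay in an untranslated stretch of exon near the 3′ end of Lars2 (chr9:123461806-123462248). It was overlapped by an H3K4me3 peak of 21.5 (rank 50), an Rfx2 peak of 8.39 (rank 109) and an H3K27ac peak of 5.82. The Rfx2 peak there lay 94958 bp from the TSS. Of the 31-base words of the MOF peak, 54.2% occurred more than once on the chromosomes, with a median of 2 and at most 8 copies, and none on the mitochondrial genome. Among the 19 promoter MOF peaks the highest such share was 7.57%, at Rars. The part of repeated sequence in the Lars2 peak was not tested.

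The proteins that work beside the synthetases were examined from a list of 13 accessory genes. All 13 had both marks, beside 54.0% of all genes with H3K4me3 and 44.1% with H3K27ac. MOF was at 8, beside 23.7% of all genes and 48.8% of genes with both marks, and Rfx2 at none, beside 1.21% of all genes. Of the scaffold of the multi-synthetase complex, Aimp1 (MOF score 1159) and Eef1e1 (470) had MOF and Aimp2 did not. Mitochondria make glutaminyl-tRNA by amidation, and of the amidase subunits Gatb (736) and Gatc (681) had MOF and Qrsl1 did not, nor did Mtfmt, which formylates the initiator methionyl-tRNA. The editing proteins Prorsd1 (1507), Dtd1 (863) and Aarsd1 (278) had MOF and Dtd2 did not. For selenocysteine, MOF was at Pstk (825) and not at Sepsecs.

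The response to uncharged tRNA was covered by 9 genes. MOF was at 6, namely Atf4 (1031), Chac1 (758), Asns (686), Ddit3 (598), Eif2s1 (586) and Impact (323), and not at Eif2ak4, the sensor kinase, its partner Gcn1 or Trib3, beside 23.7% of all genes and 48.8% of genes with both marks. H3K4me3 was at all 9 (54.0% of all genes) and H3K27ac at 8 (44.1% of all genes), with Trib3 the exception. Eif2s1, the α subunit of the initiation factor that Gcn2 phosphorylates, was the only one with Rfx2 (fold enrichment 5.31), beside 1.21% of all genes.

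The tissue label was compared with marker genes. Of 8 keratinocyte markers, 5 had H3K4me3 and 3 had H3K27ac at the promoter (Krt14, Dsp and Perp), and Krt1, Krt10 and Lor, of the differentiated layers, had neither. Among all genes the shares were 54.0% and 44.1%. The keratinocyte marker peaks ranked low, at percentiles 2.02 to 8.75 of the H3K4me3 heights and 0.779 to 21.5 of the H3K27ac heights over all genes with such a peak. Of 14 markers of fibroblasts, endothelium, blood and melanocytes, 5 had H3K4me3 and 2 had H3K27ac, both of the latter melanocyte genes. These peaks ranked higher than those of the keratinocyte markers. Their H3K4me3 percentiles ran from 31.8 at Pdgfra to 73.4 at Col1a2, and those of H3K27ac were 37.4 at Mitf and 69.5 at Pmel. The epidermis was not sorted, so the cell types behind each synthetase peak cannot be told apart.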

How the data were processed

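Bowtie2 alignment to mm10 and MACS2 calls on each library were done by the authors. Whether an input control was used is not given in the sources used here. The deposited MOF list held regions with a score of unstated scale and no summit. The deposited Rfx2, H3K4me3 and H3K27ac lists held a score, a fold enrichment, −log10 p-values and −log10 q-values, and a summit for each peak. The lists hold no reads. The read depths that the study states differ between these libraries, with Rfx2 the lowest. The deposited MOF list holds more peaks than the study states for MOF, so whether it is the final call is not known, and every MOF share rests on it. Of 8 libraries, 4 were used. The H3K4me3 list is attached to the repeat library but its name lacks the repeat mark, so its library is uncertain.

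The promoter of a gene took in 1 kb before and 100 bp after each curated RefSeq TSS (GRCm38.p6). Where several peaks met a promoter, the strongest was taken. Shares carry exact (Clopper-Pearson) 95% intervals, medians carry binomial order-statistic intervals, and differences of shares carry Newcombe intervals (statsmodels 0.14.6, scipy 1.17.1). They cover counting error only. Tested on simulated peaks at 5000 genes, the calls and those of bedtools 2.31.1 differed at 0 genes. Named are all members, their divergent partners within 1 kb, the genes of the accessory and uncharged-tRNA lists, members with a peak inside the gene among the 100 strongest of a list, and marker genes. The members and lists were chosen with earlier results of these data known. A sequence match of 1 member is not reported here.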

Additional observations from a re-analysis of the deposited data

How the results depend on the processing

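No paired analysis was possible because the libraries of each antibody gave a single list of peaks. Of 190 alternative values for 48 results on classes and lists, 181 stayed within the interval of the reported value or within 1.5 times a count. With so few genes the intervals are wide, and a mitochondrial MOF share of 31.25% in place of 56.25% counted as kept. Some alternatives could not change a value, such as leaving out Gars and Kars, both cytosolic, in the mitochondrial class. The 181 are therefore not a measure of robustness. One alternative required the peak's centre inside the promoter, which lies mostly upstream while most peaks of the members reach further downstream. It lowered MOF in the mitochondrial class to 25%, with 40% in the cytosolic class and 14.7% of all genes (23.7% as reported), H3K4me3 to 37.5% and 40% in the mitochondrial and cytosolic classes and 25.5% of all genes (54.0% as reported), and H3K27ac to 56.25% and 35% and 26.3% of all genes (44.1% as reported), with a class difference of 21.25 points for H3K27ac. The class difference in MOF ran from -15 to 7.37 points over 9 alternatives and was negative for peak centres and for the peaks above the middle of each list (-8.75). With 500 bases on either side of the start, the CARE count rose to 8 cytosolic genes and stayed at 0 mitochondrial genes, beside 11.8% of all promoters and 7.74% of those with both marks, the mitochondrial E-box count was 2 of 14 (19% and 24.9%) and the mitochondrial X-box count was 2 of 14 (3.18% and 3.53%). Keeping only the peaks above the middle of each list removed MOF from Mars2, Rars2, Wars2, Yars2, Farsa and Qars, which left 31.25% of the mitochondrial and 40% of the cytosolic genes and 14.6% of all genes, and a promoter of 1 kb on either side added Iars. Unequal depth and a single library per antibody limit every call, since a peak that was not listed may be below detection.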

Other observations

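The intervals of base composition overlapped between the classes. The promoters of the 14 mitochondrial genes had a median GC content of 58.2% (53.3 to 66.3%) and those of the 13 cytosolic genes 56.0% (49.7 to 62.3%), beside 55.7% over all promoters and 61.7% over those of genes with both marks, which lay inside both intervals. The ratio of observed to expected CpG was 0.770 (0.635 to 0.977) and 0.712 (0.590 to 1.01), beside 0.550 over all promoters and 0.798 for genes with both marks. Fars2 had the highest GC content (71.7%) and Tars2 the lowest GC content (48.3%) and CpG ratio (0.40). With MOF the median GC content was 58.3% (17 genes) and without it 56.3% (10 genes).

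Away from the promoter, intronic MOF peaks were listed in several genes. Fars2, which spans 420168 bp, had 4 intronic MOF peaks (scores 736, 610, 494 and 414), none of which overlapped H3K4me3 or H3K27ac. Eprs had 2 in introns (878 and 463), also without the marks, of which the weaker had 67.2% of its bases soft-masked, and Cars2, which lacked MOF at the promoter, had 2 (553 and 428). The intronic MOF peak of Dars (357) lay in repeated sequence, with 93.1% of its bases soft-masked.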
